A study of Mus musculus with 12 samples.

Results

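The transcripts described here are those of 10 genes of the heat shock chaperone system of the mouse: the HSP70 genes Hspa8, Hspa1a, Hspa1b, Hspa5 and Hspa9, the HSP90 genes Hsp90aa1 and Hsp90ab1, the mitochondrial chaperonin pair Hspd1 and Hspe1, and the transcription factor gene Hsf1. They were chosen by symbol, and each symbol matched 1 of the 29838 genes in the expression table. RNA was sequenced from bone marrow erythroblasts of adult male wild-type (WT) C57BL/6 mice that had received no treatment. The cells had been depleted of CD45+ cells and sorted, with a gate against CD45, CD11b and GR1, into 4 stages of rising maturity. These were Pro, the proerythroblasts, then Baso, Poly and Ortho, the erythroblasts called basophilic, polychromatic and orthochromatic after their staining. Pro was gated by Ter119 and CD44, and the later stages by CD44 and forward scatter, a measure of cell size, among Ter119 positive cells. Each stage had 3 libraries. The sources used here do not say whether the 3 came from separate mice, so the p-values measure the spread between libraries, which may be technical. For Ortho replicates 2 and 3 the cell type label reads only Erythroblast, and their stage was taken from the sample title.

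Heat shock proteins of the HSP70 family bind unfolded stretches of other proteins and release them through cycles of ATP hydrolysis, helped by J-domain co-chaperones and exchange factors. HSP90 acts later, on nearly folded clients such as kinases and steroid receptors, and the chaperonin encloses whole proteins in a chamber. In maturing erythroblasts, HSP70 is known for protecting GATA1 from cleavage, and the cell builds hemoglobin while it loses its organelles. Hsf1 encodes the main activator of heat shock genes under stress.

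Values are FPKM, fragment numbers scaled for transcript length and library size, so levels of different genes can be set side by side. Differences between stages are log2 fold changes on log2(FPKM + 1) from limma, with p-values adjusted by Benjamini-Hochberg over the 12994 genes tested. A gene was called higher or lower where its adjusted p was below 0.05 and its log2 fold change at least 1 in either direction. All 10 genes passed the filter on low values, which asked for 1 FPKM or more in at least 3 libraries. Hspa1a reached 1 FPKM in 7 of the 12 libraries and Hspa1b in 10, and the other 8 genes did so in all 12.

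Facts of the libraries bear on every comparison. Hemoglobin took 8.45% ± 1.95 of FPKM in Pro and 35.1% ± 1.79 in Baso, then 36.6% ± 1.56 in Poly and finally 49.6% ± 2.74 in Ortho (SD, n = 3), so a fixed amount of any other transcript appears lower where hemoglobin is higher. Late erythroid markers were high in every library, and their sum was 27241 to 42038 FPKM in Pro and 226220 to 267928 in Ortho. The 6 early markers summed to 173 to 217 FPKM in Pro and 226 to 231 in Ortho, not higher in the stage labelled earliest. They did not run alike. Kit (mean 17.8 in Pro and 14.5 in Ortho), Myc (34.7 and 22.8) and Itga4 (39.0 and 35.7) were lower in Ortho. Gata2 (13.0 and 27.4), Myb (57.1 and 73.9) and Cd44 (32.9 and 54.9) were higher there. Neutrophil markers were present despite the gate: all 12 had a mean of 1 FPKM or more in every stage, and their sum was 7461 to 9284 FPKM in Pro and 12775 to 14965 in Baso, then 16462 to 19508 in Poly and 14697 to 18192 in Ortho. Macrophage and monocyte markers, 7 of 12 of them at 1 FPKM or more in every stage, summed to 1286 to 1473 FPKM in Pro and 2879 to 3411 in Ortho. Most of that sum was Lyz2, with a mean of 1129 FPKM in Pro and 2652 in Ortho. C1qa, C1qb, C1qc, Mrc1 and Marco had means under 1 FPKM in every stage, and Marco was above 0 only in Ortho replicate 2. B cell markers summed to 152 to 251 FPKM in Pro and 471 to 487 in Ortho. T and NK cell markers summed to between 22.7 and 45.5 FPKM in all libraries. Most of that was Nkg7 (mean 23.6 in Pro and 35.1 in Ortho), and Cd3e and Cd3g had a mean of 0 in Ortho. Megakaryocyte markers summed to 77.0 to 139 FPKM in Pro and 41.4 to 50.2 in Ortho. Of these only Itga2b had a higher mean in Ortho (18.92 in Pro and 24.97 in Ortho). The others were lower there, among them Pf4, Ppbp and Gp9. No marker of these lists was listed at 0 in all libraries, and the part of such RNA in the results was not tested. In bulk samples, fewer cells of a type and less RNA per cell cannot be told apart.

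Of the 10 genes, 7 fell from Pro to Baso, and none of the set was called in the steps that followed. Hspa1a and Hspa1b were low throughout, above 9.50% and 18.9% of the genes tested in Pro. The 10 genes together made up 0.574% ± 0.0441 of all FPKM outside hemoglobin in Pro (SD, n = 3) and 0.289% ± 0.0290 in Baso, with 0.288% ± 0.00368 in Poly and 0.348% ± 0.0123 in Ortho. In Baso vs. Pro 7 of the 10 genes were called lower and 0 higher, where 8.54% of all genes tested were called lower and 1.82% higher, and their median log2 fold change was -1.30 against -0.23 for all genes. In Poly vs. Baso 0 genes of the set were called in either direction, with 0.454% of all genes lower and 0.0616% higher by limma. At an unadjusted limma p under 0.05 there was 1, Hspa5, which was lower, as were 12.4% of all genes. In Ortho vs. Poly 0 were called by limma too, with 4.81% of all genes lower and 1.05% higher, and at an unadjusted p under 0.05 there were 3 higher and 1 lower, against 7.47% and 27.2% of all genes. In Ortho vs. Pro 6 genes were called lower and 0 higher, against 23.8% and 6.33% of all genes, with a median of -1.19 against -0.42. The comparisons share stages and are not independent of each other.

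**Figure D1:**
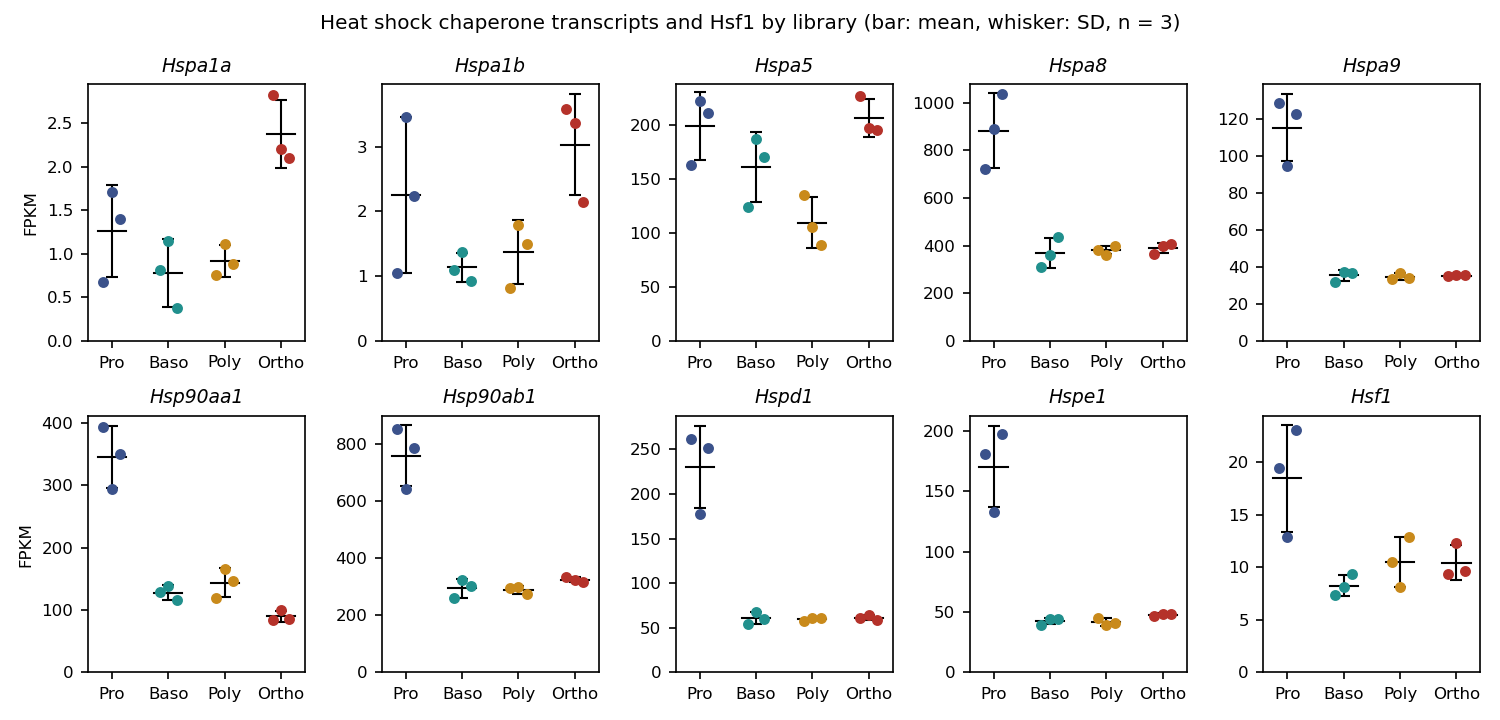
FPKM (vertical axes, linear and starting at 0, scaled separately) of the 10 genes in the 3 libraries of each stage (points), with the mean (bar) and SD (whisker). Hspa8, Hspa9, Hsp90aa1, Hsp90ab1, Hspd1 and Hspe1 were highest in the 3 Pro libraries, whereas Hspa1a had its 3 highest values in Ortho and Hspa5 had its lowest mean, 109 FPKM, in Poly.

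Hspa8 (chr9:40800984-40810087, plus strand, GRCm38) encodes HSC70, the HSP70 protein that cells make without stress and that also uncoats clathrin vesicles. It was the most abundant of the set, above 99.4% of the genes tested in Pro. Its level was 719.8, 891 and 1035 FPKM in the Pro libraries, 312, 360.0 and 435 in Baso, 383, 362 and 398 in Poly, and 367, 398 and 408 in Ortho. Every Pro library lay above every later library, and the 3 later stages overlapped. In Baso vs. Pro it fell by 1.25 on the log2 scale (SE 0.14, limma adjusted p = 2.119e-05), and between Poly and Baso and between Ortho and Poly it differed by 0.06 and 0.04 with 95% intervals of -0.24 to 0.36 and -0.27 to 0.34. Ortho vs. Pro gave -1.16 (limma adjusted p = 1.374e-05). Both calls passed the fold minimum by little. With libraries scaled to the same sum without hemoglobin the values were -0.94 and -0.67, and with median centring -0.96 and -0.76, all under the minimum though with adjusted p of 0.000829 or less by limma. Of the 150-base windows of its transcript, 56.0% also occurred in transcripts of other genes, most of them in Gm26825, a long noncoding RNA gene listed at 99.8 ± 27.8 FPKM in Pro and 43.2 ± 9.86 in Ortho, so the level of Hspa8 is uncertain where reads were split between copies.

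Hspa1a and Hspa1b encode nearly identical forms of the stress-inducible HSP70 from neighbouring single-exon genes (chr17:34969190-34972156 and chr17:34956436-34959238, both minus strand, GRCm38). The stretches shown are upstream of their start sites in the RefSeq promoter windows (GRCm38.p6), and they were chosen because they hold the only heat shock element motif found in these windows, in capitals, 104 bases before the start. The motif searched was a pair of 5-base units, GAANNTTC or TTCNNGAA, both of which read the same on the other strand.
Hspa1a, chr17:34972227-34972286, minus strand: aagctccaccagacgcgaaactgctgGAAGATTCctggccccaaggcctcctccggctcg
Hspa1b, chr17:34959309-34959368, minus strand: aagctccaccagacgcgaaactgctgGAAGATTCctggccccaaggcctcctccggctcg
The printed stretches are identical, and the 250 bases before the starts matched at 247 positions (98.8%). The same short motif occurred in 12.8% of the 32851 promoter windows of that length, so it is common.

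Both genes were low, with stage means of 0.781 to 2.38 FPKM for Hspa1a and 1.14 to 3.03 FPKM for Hspa1b. Their sum was 0.366% to 1.37% of the level of Hspa8 by stage. Hspa1a was at 0.679, 1.72 and 1.40 FPKM in Pro, 0.820, 1.15 and 0.377 in Baso, 0.760, 1.12 and 0.882 in Poly, and 2.82, 2.21 and 2.11 in Ortho. The 3 Ortho libraries were the highest of the 12. In Ortho vs. Poly the log2 fold change was 0.81 (SE 0.20, limma adjusted p = 0.01022), a ratio of mean FPKM of 2.59, which did not reach the fold minimum because the added 1 compresses low values. With a pseudocount of 0.1 it was 1.29 (limma adjusted p = 0.02726) and was called. Ortho vs. Pro gave 0.60 (limma adjusted p = 0.01818). Hspa1b was at 1.05, 3.46 and 2.24 FPKM in Pro, 1.10, 1.38 and 0.931 in Baso, 0.824, 1.79 and 1.50 in Poly, and 3.58, 3.37 and 2.14 in Ortho. Its Ortho libraries lay above those of Poly and Baso but overlapped Pro. Its log2 fold change in Ortho vs. Poly was 0.77 (SE 0.26, limma adjusted p = 0.05233). The copies share 38.1% of the windows of Hspa1a and 40.5% of those of Hspa1b with each other, so reads cannot be assigned firmly to one of them. Immediate early genes, which answer to handling of cells, summed to 739 to 860.0 FPKM in Pro and 683 to 1254 in Baso, then 840 to 1531 in Poly and 879 to 1473 in Ortho, highest in replicate 1 of the last 3 stages, and their part in the Hspa1a and Hspa1b values was not tested.

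Hspa5 (chr2:34771970-34777547, plus strand, GRCm38) encodes BiP, the HSP70 protein of the endoplasmic reticulum (ER), which folds secretory proteins and holds the sensors of the unfolded protein response in check. Its upstream window holds an ER stress response element, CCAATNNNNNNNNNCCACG, which was found on either strand in 0.113% of all promoter windows. The 30 bases around the match are printed to show it, with the element in capitals, beginning 65 bases before the RefSeq start.
Hspa5, chr2:34772020-34772049, plus strand: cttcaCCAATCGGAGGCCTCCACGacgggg
No heat shock element of the kinds searched was in that window.

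The course of Hspa5 differed from that of Hspa8. Its level was 163, 222 and 211 FPKM in Pro, 124, 187 and 170.3 in Baso, 134, 105 and 88.3 in Poly, and 227, 197 and 195 in Ortho. Poly was the lowest stage and overlapped Baso in 1 library, and the Ortho libraries lay above all Poly libraries and overlapped Pro. In Baso vs. Pro the log2 fold change was -0.31 (SE 0.18, limma adjusted p = 0.1607), and in Poly vs. Baso -0.55 (SE 0.18, limma adjusted p = 0.06974). Ortho vs. Poly gave 0.93 (SE 0.18, limma adjusted p = 0.002163), which lay under the fold minimum. It passed with libraries scaled without hemoglobin (1.07), with median centring (1.08) and without Poly replicate 1 (1.09). Ortho and Pro differed by 0.06, with a 95% interval of -0.33 to 0.46.

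By adjusted p alone, 2 of the 10 genes were higher in Ortho vs. Poly, Hspa5 and Hspa1a, against 4.43% of all genes, and 1 was lower, Hsp90aa1, against 21.7%. By the same criterion, Ortho vs. Pro had 1 higher, Hspa1a, against 22.7% of all genes, and 7 lower, against 53.2%.

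**Figure D2:**
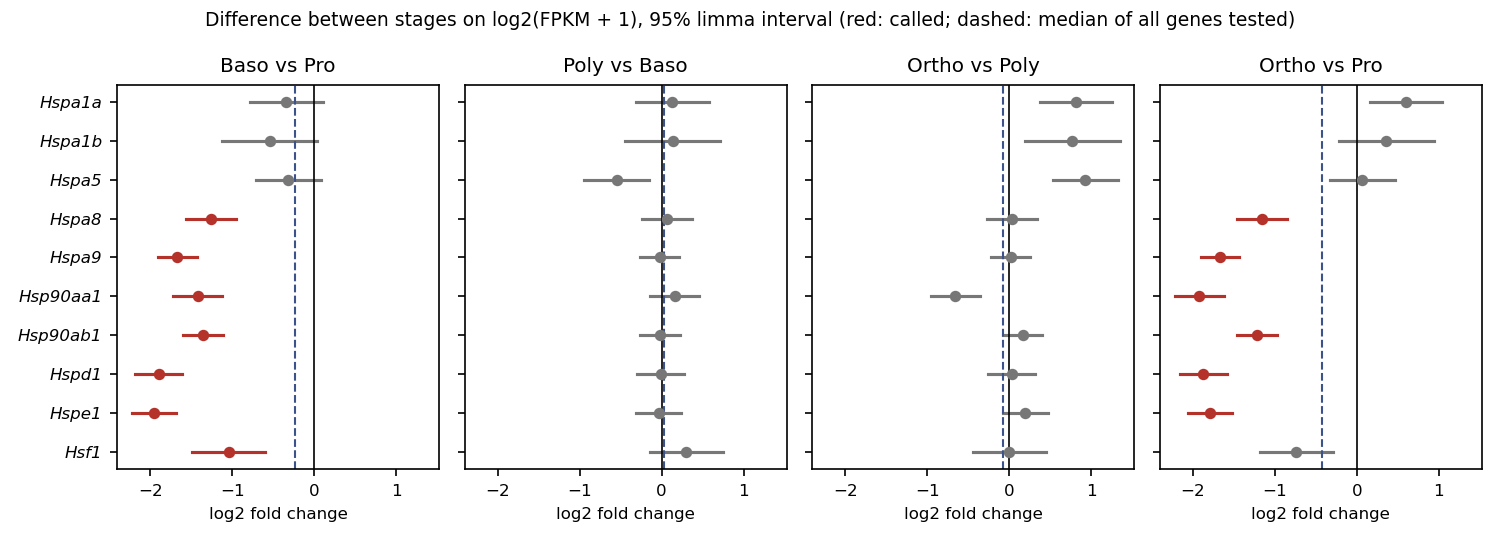
Log2 fold change on log2(FPKM + 1) (horizontal axes) of each gene in the 4 comparisons, with 95% limma intervals, in red where called and grey where not, and the median of all genes tested as a dashed line. The 7 called genes of Baso vs. Pro lie between -1.95 and -1.04, and no gene is called in Poly vs. Baso or Ortho vs. Poly. In Ortho vs. Poly, the intervals of Hspa1a, Hspa1b and Hspa5 lie wholly to the right of 0. That of Hsp90aa1 lies wholly to the left, and the others include 0.

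The mitochondrial chaperones showed the largest differences from Pro to Baso. Hspa9 encodes mortalin, the HSP70 protein of the mitochondrial matrix, which pulls proteins through the inner membrane and serves iron-sulfur cluster assembly. It was at 129, 94.6 and 123 FPKM in Pro, 32.0, 37.3 and 36.9 in Baso, 33.3, 36.9 and 34.1 in Poly, and 34.9, 35.4 and 35.4 in Ortho. The Pro libraries were all far above the rest, and the other 9 libraries lay between 32.0 and 37.3 FPKM. Hspa9 fell by 1.67 on the log2 scale in Baso vs. Pro (SE 0.11, limma adjusted p = 1.637e-06), to a level 3.26-fold lower, with later steps of -0.02 and 0.02.

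Hspd1 and Hspe1 encode HSP60 and HSP10, the barrel and the lid of the mitochondrial chaperonin. The genes lie head to head on chromosome 1 (Hspd1 chr1:55077835-55088243, minus strand; Hspe1 chr1:55088132-55091307, plus strand; GRCm38) and overlap at their starts in the annotation, so reads from the overlap cannot be told apart if strand was not used in counting. Between the RefSeq start sites considered here, 215 bases apart, lies a run of 4 alternating heat shock units, inside the annotated span of the longer Hspd1 gene, which is shown as read from each gene because it is shared by both, with the run in capitals.
Hspe1, chr1:55088053-55088082, plus strand: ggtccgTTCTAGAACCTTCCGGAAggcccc
Hspd1, chr1:55088053-55088082, minus strand: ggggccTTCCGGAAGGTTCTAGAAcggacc
The run begins 89 bases before the Hspe1 start and 144 bases before that Hspd1 start. It holds 2 overlapping matches to the 3-unit motif (GAANNTTCNNGAA or TTCNNGAANNTTC), which 0.466% of all promoter windows held. A further RefSeq window of Hspd1, from a start farther upstream, held no match. Promoter windows were at hand for 5 of the 10 genes: Hspd1, Hspe1, Hspa5, Hspa1a and Hspa1b. A match describes the letters and is not evidence of a factor bound there.

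Hspd1 was at 262, 178 and 252 FPKM in Pro, 54.4, 67.6 and 59.7 in Baso, 58.0, 60.9 and 60.6 in Poly, and 61.3, 64.3 and 58.3 in Ortho. Hspe1 was at 181, 133 and 197 FPKM in Pro, 39.7, 44.3 and 44.3 in Baso, 45.2, 39.1 and 40.8 in Poly, and 46.8, 48.8 and 48.1 in Ortho. Both were separate between Pro and every later library and nearly level thereafter. In Baso vs. Pro, Hspd1 fell by 1.90 (SE 0.13, limma adjusted p = 1.685e-06) and Hspe1 by 1.95 (SE 0.12, limma adjusted p = 1.62e-06), and 0.354% and 0.269% of all genes tested had lower values. Ortho vs. Pro gave -1.88 for Hspd1 and -1.79 for Hspe1, both called. In Ortho vs. Poly, the Ortho libraries of Hspe1 lay above the Poly libraries, by 0.20 (limma adjusted p = 0.3087). For Hspd1, 18.6% of the transcript windows occur in the pseudogene Hspd1-ps3, which was listed at 3.08 ± 0.689 FPKM in Pro, and for Hspe1 14.1% occur in 1 other gene.

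Hsp90aa1 and Hsp90ab1 encode the inducible and the constitutive form of cytosolic HSP90. Hsp90ab1 (chr17:45567775-45573271, minus strand, GRCm38) was at 853, 642 and 787 FPKM in Pro, 259, 325 and 303 in Baso, 295, 301 and 275 in Poly, and 335, 324 and 316 in Ortho. Hsp90aa1 (chr12:110690605-110702728, minus strand, GRCm38) was at 392, 294 and 350.3 FPKM in Pro, 129, 139 and 116 in Baso, 119, 165 and 147 in Poly, and 84.7, 100.1 and 85.4 in Ortho. Both were highest in Pro, and only Hsp90aa1 had its Ortho libraries below all Baso and Poly libraries. In Baso vs. Pro, Hsp90ab1 fell by 1.36 (SE 0.11, limma adjusted p = 3.51e-06) and Hsp90aa1 by 1.42 (SE 0.14, limma adjusted p = 8.577e-06). In Ortho vs. Poly, Hsp90aa1 had a log2 fold change of -0.66 (SE 0.14, limma adjusted p = 0.00324), under the fold minimum, and Hsp90ab1 one of 0.16 (SE 0.11, limma adjusted p = 0.3473). Ortho vs. Pro gave -1.92 for Hsp90aa1 and -1.21 for Hsp90ab1, both called. The call for Hsp90ab1 was lost with scaling without hemoglobin (-0.72) and with median centring (-0.82). Hsp90aa1 shares 36.2% of its windows with other genes, mostly the processed pseudogene Gm12346, which was listed at 38.6 ± 14.5 FPKM in Pro and 8.35 ± 0.425 in Ortho, whereas Hsp90ab1 shares none.

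Hsf1 (chr15:76477422-76501913, plus strand, GRCm38) encodes the factor that activates heat shock genes, and its level lay above those of Hspa1a and Hspa1b and below those of the other 7 genes in every stage. It was at 19.4, 12.9 and 23.0 FPKM in Pro, 7.31, 8.09 and 9.32 in Baso, 10.5, 8.12 and 12.9 in Poly, and 9.33, 12.3 and 9.65 in Ortho. The lowest Pro library was level with the highest Poly library. Hsf1 fell by 1.04 in Baso vs. Pro (SE 0.20, limma adjusted p = 0.001148), and in Ortho vs. Pro the log2 fold change was -0.74 (SE 0.20, limma adjusted p = 0.006194), not called. The first call rested on a narrow margin: it was lost with a pseudocount of 5 (-0.80), with scaling without hemoglobin and with median centring (-0.75 each), and without Pro replicate 1 (-0.99), Pro replicate 3 (-0.87) or Baso replicate 1 (-0.97). With libraries scaled to the same sum, Ortho vs. Pro was called, at -1.08.

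The order of the Pro libraries differed between genes of the set. Hspa8 was lowest in replicate 1 and highest in replicate 3. For Hspa5, replicate 1 lay apart, at 163 FPKM against 222 and 211, as it did for Hspa1a, at 0.679 against 1.72 and 1.40. Pro replicate 2 was the lowest of the Pro libraries for Hsp90aa1, Hsp90ab1, Hspd1, Hspe1, Hspa9 and Hsf1 and the highest for Hspa1a, Hspa1b and Hspa5, and its hemoglobin share of 10.7% was above the 7.70% and 6.98% of replicates 1 and 3. Without it the number of genes called lower stayed at 7 in Baso vs. Pro and at 6 in Ortho vs. Pro.

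Ratios of members within a library do not depend on how that library was scaled, and 4 were tested by an exact permutation test over the 15400 divisions of the 12 libraries into 4 groups of 3 (smallest possible p = 6.49e-05, p adjusted over the 4 ratios by Benjamini-Hochberg). The ratio of Hsp90aa1 to Hsp90ab1 had a geometric mean of 0.454 in Pro and 0.433 in Baso, with 0.491 in Poly and 0.276 in Ortho, and differed between stages (exact permutation p = 0.009091, adjusted p = 0.01818). The inducible form thus made up a smaller part of HSP90 transcripts in Ortho, where the 3 ratios of 0.253 to 0.309 lay below the 9 others. The ratio of Hspa1a plus Hspa1b to Hspa8 was 0.366% in Pro and 0.507% in Baso, with 0.583% in Poly and 1.37% in Ortho (exact permutation p = 0.01532, adjusted p = 0.02043), with the 3 Ortho libraries above all others. Without Ortho replicate 1 or 2 its adjusted exact permutation p was 0.1016 and 0.06641.

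The ratio of Hspa5 to Hspa9, the ER and the mitochondrial HSP70, was 1.72 in Pro and 4.47 in Baso, with 3.10 in Poly and 5.84 in Ortho (exact permutation p = 0.0001299, adjusted p = 0.0005195). The ratio of Hspd1 to Hspe1 was 1.35, 1.41, 1.44 and 1.28 (exact permutation p = 0.2608, adjusted p = 0.2608) and stayed between 1.21 and 1.56 in all 12 libraries, while each gene was more than 3-fold lower after Pro. With the replicate number as a block over Baso, Poly and Ortho, which leaves Pro out, the adjusted exact permutation p was 0.1111 for Hsp90aa1 to Hsp90ab1, for Hspa1a plus Hspa1b to Hspa8 and for Hspa5 to Hspa9, and the smallest unadjusted p that fit allows is 0.0278.

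**Figure D3:**
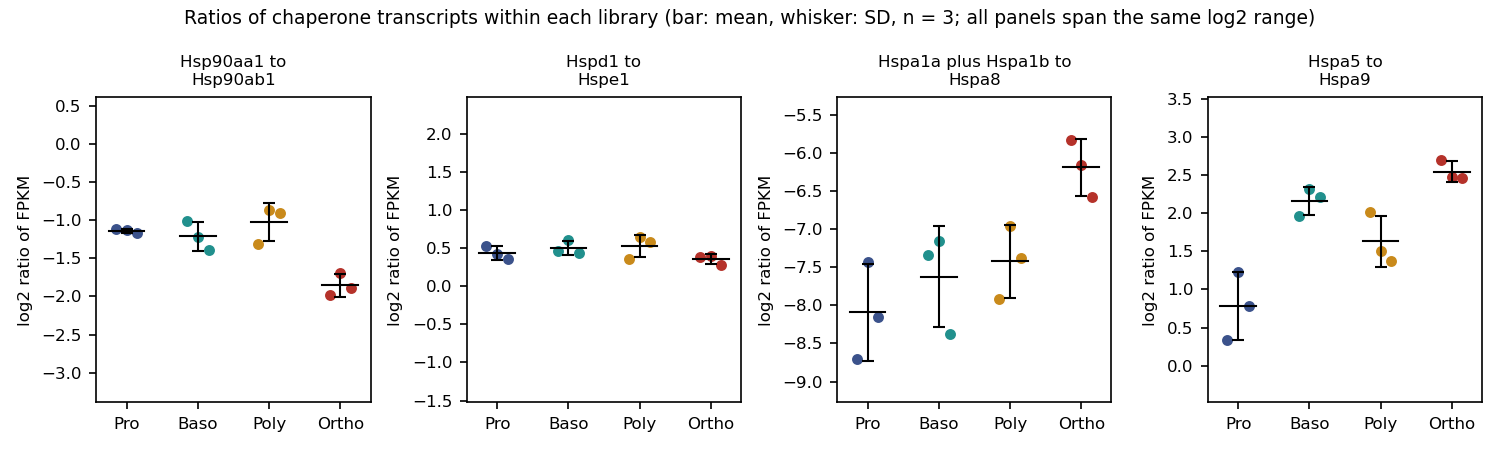
Log2 ratio of FPKM (vertical axes, all of the same span) for 4 pairs of chaperone transcripts in the 3 libraries of each stage (points), with mean and SD. The ratio of Hsp90aa1 to Hsp90ab1 is lowest in Ortho, those of Hspa1a plus Hspa1b to Hspa8 and of Hspa5 to Hspa9 are highest there, and that of Hspd1 to Hspe1 stays between 1.21 and 1.56 on the linear scale.

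The genes whose centred log2(FPKM + 1) ran closest to each member over the 12 libraries were found by root mean square (RMS) difference, given here as a description. Hspd1 and Hspe1 were near each other, at an RMS difference of 0.105, with C1qbp nearest to Hspd1 at 0.0932 and Nhp2 second for Hspe1 at 0.115. Nsun2 and Mrpl12 were nearest to Hspa9 (0.0820 and 0.0882), Atic and Mogs to Hsp90ab1 (0.0578 and 0.0789), and Fh1 and Pm20d2 to Hspa8 (0.119 and 0.124). Hspa1a and Hspa1b were each other's nearest gene, at 0.191, and they share part of their transcript sequence. The second genes were Rpap2 for Hspa1a (0.195) and Gnpda2 for Hspa1b (0.276). Snhg5 and Zmynd19 were nearest to Hsp90aa1 (0.110 and 0.158), Tldc1 and Ighmbp2 to Hsf1 (0.156 and 0.171), and Cir1 and Dcaf8 to Hspa5 (0.231 and 0.236).

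The chaperones work with co-chaperones and other folding factors, of which 120 genes in 9 lists were tested. In Baso vs. Pro 21 were called lower and 2 higher (17.5% and 1.67%), in Poly vs. Baso 0 and 0, in Ortho vs. Poly 4 and 1, and in Ortho vs. Pro 49 and 4 (40.8% and 3.33%), with medians of -0.56, -0.03, -0.10 and -0.81. Of all genes tested, 8.54% were lower in Baso vs. Pro, 0.454% in Poly vs. Baso, 4.81% in Ortho vs. Poly and 23.8% in Ortho vs. Pro. The shares of all genes higher were, in the same order, 1.82%, 0.0616%, 1.05% and 6.33%. The 3.33% of the network lower in Ortho vs. Poly was thus near the share of all genes. The cytosolic chaperonin TRiC with prefoldin, which fold actin and tubulin, had 11 of 15 genes (73.3%) lower in Ortho vs. Pro, with a median of -1.32. Tcp1, a TRiC subunit, fell from 185 ± 32.0 to 55.5 ± 3.35 FPKM (-1.70, limma adjusted p = 1.013e-07), and Pfdn1 from 33.4 ± 4.87 to 7.60 ± 0.880. Mitochondrial folding factors and proteases had 6 of 9 (66.7%) lower, with a median of -1.49. Lonp1, the matrix protease, fell from 63.5 ± 11.3 to 14.1 ± 0.869 FPKM, most of it by Baso (21.1 ± 0.469). Afg3l2, an inner membrane protease, was still at 36.0 ± 0.229 FPKM in Poly and was at 14.0 ± 1.21 in Ortho.

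Among relatives and partners of HSP90 and HSP70, not all of them cytosolic, the shares called lower in Ortho vs. Pro differed by list, beside 23.8% of all genes. HSP90 relatives and co-chaperones had 12 of 22 lower (54.5%, median -1.09), led by Aarsd1 (-1.56) and by Trap1, the mitochondrial HSP90 (-1.54). Exchange factors of HSP70 had 5 of 10 lower (median -1.02), with Bag2 at -2.27 and Hspbp1 at -2.02. HSP70 relatives had 2 of 8 lower (25%, near the share of all genes, median -0.81): Hsph1, an HSP110 that recharges HSP70 with nucleotide, fell from 59.6 ± 11.9 to 12.6 ± 1.62 FPKM (-2.14, limma adjusted p = 1.809e-07), and Hspa14 by 1.41. J-domain proteins, which direct HSP70 to its clients, had 10 of 36 lower (27.8%, also near that share, median -0.57). Another 4 of them were higher, where 6.33% of all genes were higher. Hscb, the J-domain protein of iron-sulfur cluster assembly and a partner of Hspa9, rose from 15.7 ± 3.09 FPKM in Pro to 63.3 ± 4.75 in Ortho (1.96, limma adjusted p = 1.928e-07), and Dnajb2 rose by 1.48. Dnajc19 and Dnaja3, both mitochondrial, were at -1.80 and -1.68.

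The ER folding list, the setting of Hspa5, had 2 of 16 genes (12.5%, against 23.8% of all genes) lower in Ortho vs. Pro. It had 0 higher, against 6.33% of all genes, and a median of -0.17 against -0.42 for all genes. The lower genes were Canx, a lectin chaperone (-1.21), and Manf (-1.14). In Ortho vs. Poly 0 of the 16 were called, near the 4.81% of all genes lower and 1.05% higher. A limma adjusted p under 0.05 was reached by 0 of them, against 21.7% of all genes lower and 4.43% higher. At an unadjusted limma p under 0.05 there were 4, against 27.2% and 7.47% of all genes. The median of the list was -0.03 in this step, where Hspa5 had 0.93. Of 11 small heat shock protein genes 6 were in the table and 2 were tested: Hspb6 fell from 10.7 ± 2.21 to 2.92 ± 0.484 FPKM (-1.57) and Hspb11 was at -0.12. Of 6 genes of other heat shock factors and their binding partners 2 were tested, Hsf2 and Hsbp1, and 0 were called in the 4 comparisons. Both had a limma adjusted p under 0.05 in Ortho vs. Pro, in opposite directions, with a median log2 fold change of 0.05. By the same criterion 22.7% of all genes were higher and 53.2% lower.

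**Figure D4:**
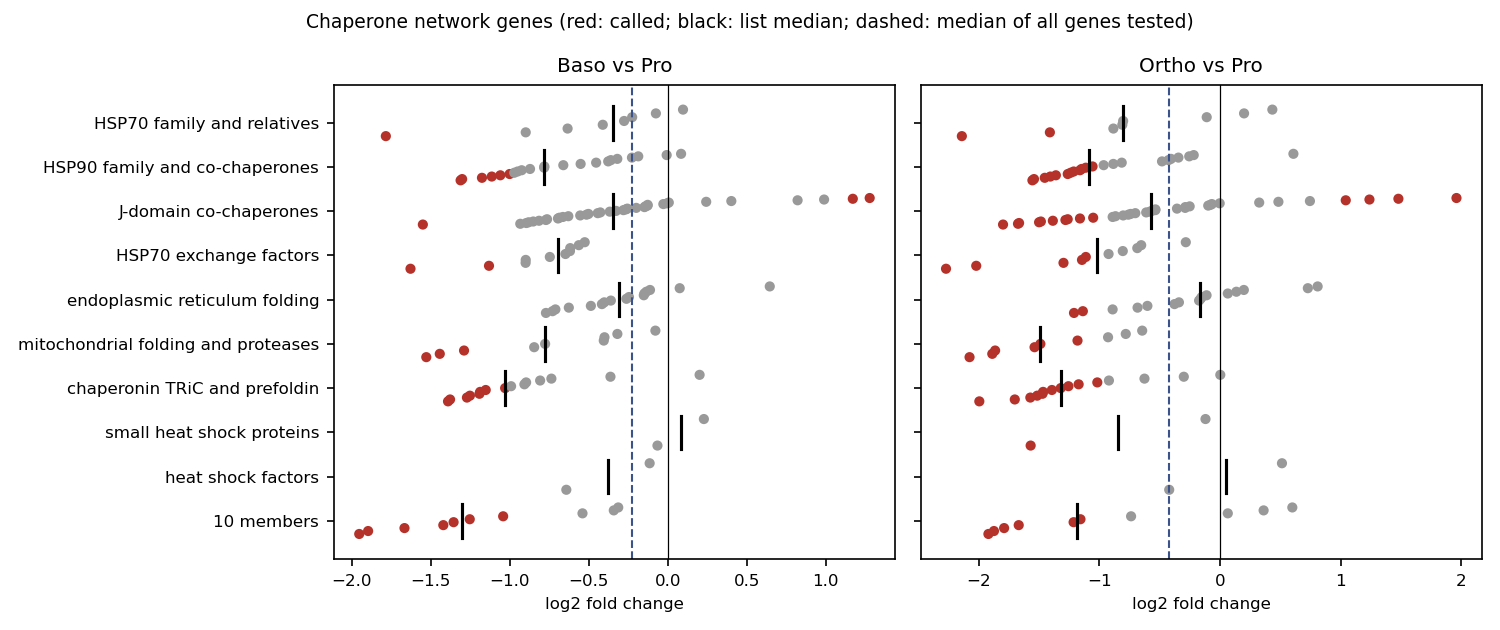
Log2 fold change on log2(FPKM + 1) (horizontal axes) of the tested genes of 9 chaperone network lists and of the 10 members, in Baso vs. Pro and Ortho vs. Pro, with 1 point per gene (red where called), the list median (black bar) and the median of all genes tested (dashed line). In Ortho vs. Pro, the chaperonin and the mitochondrial lists have medians of -1.32 and -1.49, and the ER folding list one of -0.17.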

How the data were processed

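The deposited table holds FPKM per gene, which the authors made from reads on mm10; their processing notes name cutadapt, Trimmomatic, HISAT2, SAMtools and featureCounts, with no versions. Read counts and depth are unknown, so no counting interval is given, and strand use in counting is not given in the sources used here. One repeated identifier was dropped, leaving 29838 genes. Stages were compared with limma 3.58.1 (R 4.3.3; variance trend, 1 mean per stage, all 12 libraries) on log2(FPKM + 1) for genes with FPKM of at least 1 in 3 libraries, two-sided. The count test of the study could not be used on FPKM. Fold changes on this scale understate those of low genes. Exact permutation tests, motif searches and figures used Python 3.11.15, numpy 2.4.6, pandas 2.3.3 and matplotlib 3.10.9. Positions came from GENCODE M21 and promoter windows from RefSeq, both on GRCm38, the assembly of mm10. The scripts were tested on simulated data.

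The 10 genes, the network lists and the marker lists were chosen with earlier results of these data known. All 10 members are named in every comparison, with, from each list, the called genes of largest change in Ortho vs. Pro (up to 2 in each direction) and the 2 nearest genes of each member; Hspb11, Hsf2 and Hsbp1 were named after their values were seen. The replicate numbers were checked for pairing. Deviations from stage means of same-numbered libraries correlated at 0.156 to 0.319 between Baso, Poly and Ortho, and at 0.00524 to 0.0968 between Pro and the others. On the values alone, the numbers were taken as pairing the samples of Baso, Poly and Ortho. The main tests did not use this pairing, and the replicate number entered only the alternatives with a replicate block.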

Additional observations from a re-analysis of the deposited data

How the results depend on the processing

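Alternatives were other pseudocounts, filters, scalings, fits and criteria and leaving out each library. With all libraries kept, 423 of the 452 member values kept their direction and side of the threshold. Members called higher in Ortho vs. Poly numbered 1 with a pseudocount of 0.1, with scaling without hemoglobin and with median centring, 2 by adjusted p alone, and 0 to 1 without 1 library (1 without Poly replicate 1). By adjusted p alone 1 was lower there and 1 higher in Ortho vs. Pro. Members called lower numbered 5 in Baso vs. Pro and 4 in Ortho vs. Pro with scaling without hemoglobin or median centring. With scaling without hemoglobin all genes in Baso vs. Pro split into 494 higher and 421 lower, against 237 and 1110, and the median moved from -0.23 to 0.03; in Ortho vs. Pro the split was 1997 and 1153, against 823 and 3092.

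Values that changed sign were all small and uncalled. In Ortho vs. Poly with the same sum per library they were Hspa8 -0.15, Hspa9 -0.16, Hsp90ab1 -0.025, Hspd1 -0.15 and Hsf1 -0.17, and Hsf1 -0.00074 with a pseudocount of 5. Hspa5 was -0.30 in Ortho vs. Pro with the same sum, and 0.0018 in Baso vs. Pro with scaling without hemoglobin, where Hspa9 was 0.0090, Hsp90ab1 0.010 and Hspd1 0.021 in Poly vs. Baso. Without 1 library, Poly vs. Baso ranged from -0.055 to 0.18 for Hspa8, -0.092 to 0.016 for Hspa9, -0.11 to 0.048 for Hsp90ab1, -0.085 to 0.069 for Hspd1, -0.095 to 0.0078 for Hspe1 and -0.046 to 0.27 for Hspa1a. Ortho vs. Poly ranged from -0.010 to 0.061 for Hspa9, -7.12e-05 to 0.081 for Hspa8, -0.0021 to 0.067 for Hspd1 and -0.16 to 0.15 for Hsf1, and Ortho vs. Pro from -0.072 to 0.15 for Hspa5. The cause was not tested.

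With the replicate block, the adjusted exact permutation p was 0.1111 for the ratios of Hsp90aa1 to Hsp90ab1, Hspa1a plus Hspa1b to Hspa8 and Hspa5 to Hspa9; it changed no limma call of a member. Without 1 library, the adjusted exact permutation p for Hspa1a plus Hspa1b to Hspa8 ranged from 0.01325 to 0.1016. FPKM hold no depth, so no counting error can be given for low values such as those of Hspa1a and Hspa1b.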
